A study of Xenopus laevis with 4 samples.

Results

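The comparison described here sets Xenopus laevis animal caps injected with ICD RNA against caps injected with HMM RNA, and it uses 3 of the 4 arrays of the series. Arrays were taken by the injected agent that the labels give, which put 2 arrays in the ICD group and 1 in the HMM group. The remaining array, of caps injected with DBM, is no member of either group. An animal cap is the presumptive ectoderm of the blastula, cut out and cultured alone. In every group the RNA was injected at the 2-cell stage, the embryos were kept in 0.1X MMR, and the explants were cut at stage 9 to 10. They were held in Danilchik's medium with 0.1% BSA and harvested at the equivalent of stage 12. ICD commonly stands for the intracellular domain of Notch. The labels do not say what HMM stands for, and no array of uninjected caps was analysed here, so each difference is between the injected RNAs and not from an untreated level. Whether caps of several embryos were pooled for an array is not given in the sources used here. Nothing says that the ICD arrays came from separate clutches, so the p-values reflect no more than the spread among these arrays, and that spread may be technical.

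In Notch signalling, a ligand on one cell (Delta or Jagged) triggers cleavage of the receptor on its neighbour, and the freed intracellular domain enters the nucleus. There it joins the DNA-binding protein Rbpj and Mastermind and switches on target genes, among them repressors of the Hes and Hey families. In the frog epidermis, cells of the inner layer with low Notch activity leave their layer and become multiciliated cells or ionocytes, while their neighbours remain epidermal. Notch activity in the neighbours is known to hold back both of these cell types.

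Each array gave a MAS5 signal, a brightness on a linear scale, for 32539 probe sets other than controls. Signals are given after rescaling of each array to a common trimmed mean, and differences are the log2 of signal plus an offset of 15.1, ICD minus HMM. The 19523 probe sets with a mean signal of at least 34.5 were tested with limma. The 2% trimmed mean signal before rescaling was 151 on ICD replicate 1 and 377 on ICD replicate 2, against 382 on HMM, so the first ICD array was the dim one. The ratio of the 3′ to the 5′ probe set of the gapdh control, a sign of RNA quality, was 1.93 and 1.30 with ICD and 1.61 with HMM, which lay between them. The log2 signals of the ICD arrays correlated across probe sets at r = 0.958. The correlation with HMM was 0.938 for ICD replicate 1 and 0.896 for ICD replicate 2. These correlations describe the arrays, since probe sets are not independent replicates. The ICD pair alone supplies the single residual degree of freedom (1), and the lone HMM array is assumed to vary like that pair.

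At an adjusted p of 0.05, 324 probe sets differed between ICD and HMM, 1.66% of those tested. Of these, 241 were higher with ICD, 1.23% of those tested, and 83 were lower, 0.425%. Every one of the 324 differed from HMM by at least 2-fold in the same direction on both ICD arrays. The test favours such agreement, since its spread came from the ICD pair, and both differences share the HMM array. The smallest difference that passed was 1.55 on the log2 scale. With 1 probe set per gene symbol, 114 of 7997 genes rose (1.43%) and 56 fell (0.7%). Without a test, 3.55% of genes were at least 2-fold higher on both ICD arrays and 3.39% were at least 2-fold lower on both. At an unadjusted p of 0.05, 5.69% of genes were higher and 7.63% were lower. The median difference over all genes was -0.08, and 58.2% of differences were below 0. The HMM signal lay under 34.5 for 51 of the 241 higher probe sets, and the ICD mean lay under it for 22 of the 83 lower ones. For these the size of the difference depends on the offset. With no filter on brightness 214 probe sets passed, and with no intensity trend, a term that lets the spread depend on brightness, 155 did. Where one of these settings, or a larger offset of 1 times the median signal, ended the call on a gene of the lists below, this is said beside the gene. A gene that is dim with HMM passes the brightness filter only through the ICD arrays, and one that is dim with ICD only through HMM, so counts and medians over tested genes depend on that filter.

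**Figure D1:**
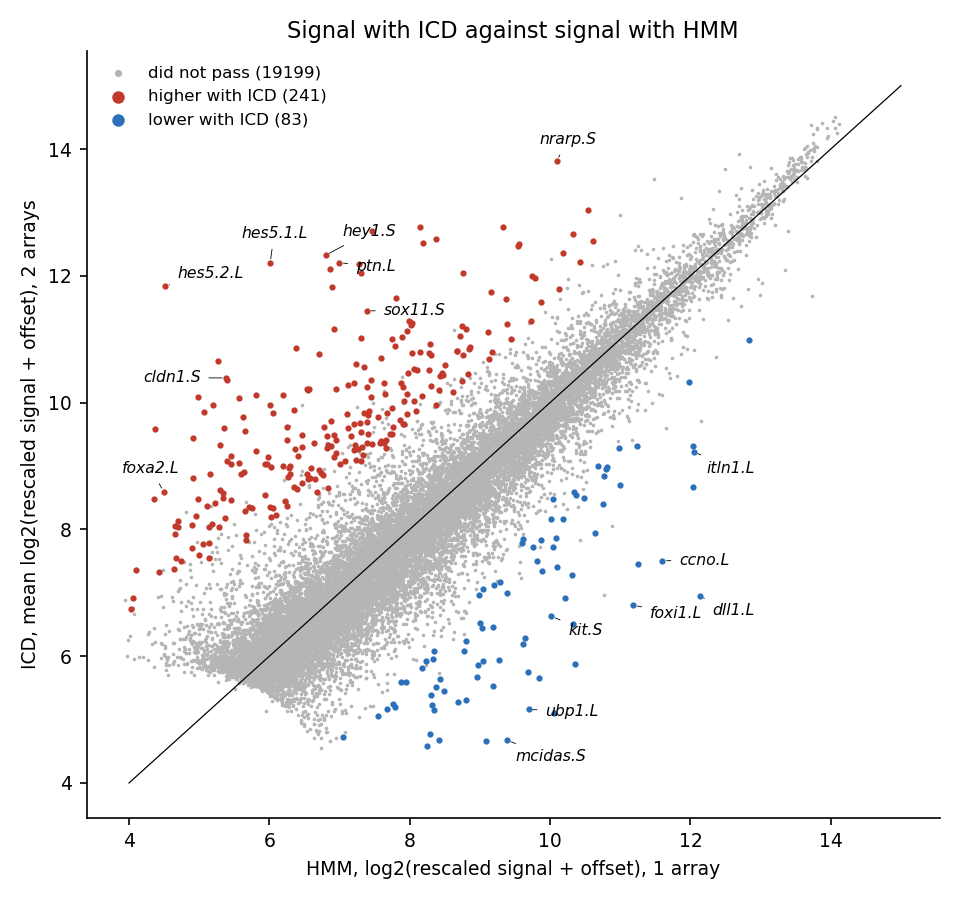
Mean log2 signal of the 2 ICD arrays (vertical axis) against log2 signal of the HMM array (horizontal axis), 1 point per tested probe set, with the diagonal marking equal signal. The 241 red points passed the test as higher with ICD and the 83 blue points as lower, and the hes5 genes and hey1.S lie farthest above the diagonal among the labelled genes while dll1.L, mcidas.S and ubp1.L lie farthest below.

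The spread in the test came from the ICD pair. Among the probe sets that passed, the median gap between the ICD arrays was 0.30, against 0.29 over all tested probe sets. A small gap helps a probe set to pass, so the first value is partly set by the test. For some genes the ICD arrays lay far apart. The signal of cdh1.S, which encodes the epithelial adhesion protein E-cadherin, was 1817 on ICD replicate 1 and 62.8 on ICD replicate 2, on either side of 1054 with HMM. The signal of hmox1.L, the stress-inducible heme oxygenase, was 581 and 2236 with ICD and 184 with HMM, a difference of 2.54 with an adjusted p of 0.176. For hmox1.L the groups did not overlap, but the gap between the ICD arrays was 1.92 on the log2 scale.

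**Figure D2:**
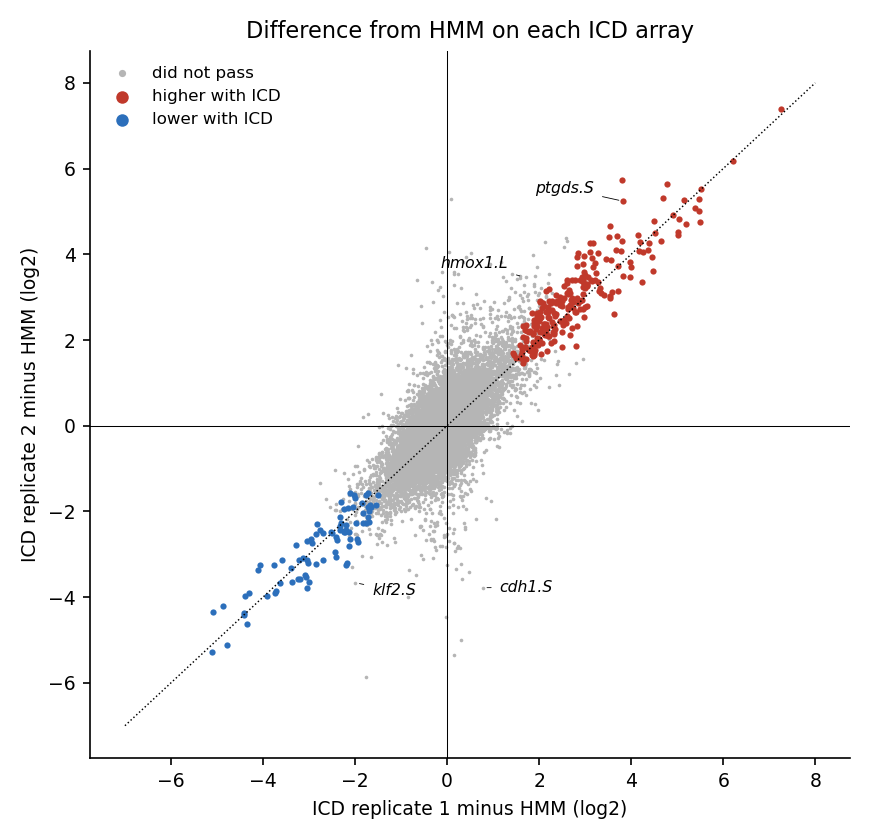
Log2 difference from HMM on ICD replicate 2 (vertical axis) against that on ICD replicate 1 (horizontal axis), 1 point per tested probe set, with the diagonal marking equal differences. Both axes share the HMM array, so the trend along the diagonal is partly built in, and the coloured points that passed the test all lie at least 1 log2 unit from 0 on both axes while cdh1.S is positive on one array and negative on the other.

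Genes of the Hes and Hey repressor family had the highest median difference of the 19 gene lists compared. Of 17 such genes on the array 14 were tested, and 11 rose and 1 fell, against 1.43% and 0.7% of all genes. The median difference of the 14 was 4.74, against -0.08 over all genes. The signal of hes5.2.L was 3486 and 3832 on the ICD arrays and 7.81 on HMM. The signal of hes5.1.L was 4760 and 4642 with ICD and 49.4 with HMM. For hey1.S, a repressor of the related Hey group, it was 5133 and 5106 with ICD and 96.7 with HMM. In all 3 genes the ICD arrays lay close together and far above HMM. The fitted difference was 7.32 ± 0.26 (SE) for hes5.2.L, with an adjusted p of 6.71e-04, and it ranged from 5.77 to 8.30 over the processing settings because HMM was near the floor. It was 6.19 ± 0.25 for hes5.1.L (adjusted p = 8.31e-04) and 5.52 ± 0.25 for hey1.S (adjusted p = 0.00117).

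The other members of the family were spread over a wide range of levels with HMM. The repressor gene hes4.S gave 4884 and 3960 with ICD and 102 with HMM, a difference of 5.24. For hes4.S other probe sets differed by 4.93, 2.35 and 1.87, of which only the first passed. Its homeolog hes4.L was already at 2494 with HMM and reached 5814 and 5002 with ICD, and its difference of 1.11 did not pass (adjusted p = 0.191). Further hes5 genes that rose were hes5.6.L by 5.38, hes5.1.S by 5.24, hes5.5.S by 4.96, hes5.7.L by 4.51, hes5.2.S by 3.90, hes5.3.L by 3.89 and hes5.10.L by 3.84. The smallest of these, hes5.10.L, still went from 208 with HMM to 3541 and 2876 with ICD. Several hes5 genes lie side by side in the genome and resemble each other, and their probe sets may detect more than 1 of them, so the copies are named as annotated. One family member went the other way. The signal of hes1.L, a repressor gene that is a Notch target in many tissues, was 62.4 and 81.9 with ICD and 509 with HMM, and it fell by 2.60 (adjusted p = 0.0271). The hes1.S difference was -0.51 (adjusted p = 0.725).

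Among genes of the pathway itself, a feedback gene passed upward and ligand genes downward. Of 30 ligand, receptor and modulator genes on the array 18 were tested, and the median was -0.04. By the adjusted test 1 rose and 2 fell, against 1.43% and 0.7% of all genes. The gene nrarp.S, which encodes a small ankyrin-repeat protein that is a target and a feedback inhibitor of Notch, gave 17088 and 12107 with ICD and 1077 with HMM. It rose by 3.72 ± 0.38 (adjusted p = 0.00869). Both genes that fell encode ligands of the Delta type. The signal of dll1.L was 115 and 101 with ICD and 4481 with HMM, and it fell by 5.19 ± 0.28 (adjusted p = 0.00123). The signal of dlc.L was 49.6 and 37.8 with ICD and 1297 with HMM, and it fell by 4.49 ± 0.37 (adjusted p = 0.00425). A ligand gene of the Jagged type, jag1.L, gave 305 and 440 with ICD and 100.1 with HMM, a difference of 1.73 that did not pass (adjusted p = 0.0844). For dtx4.L, a Deltex-type modulator of the receptor, the difference was 1.34 (adjusted p = 0.0735).

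The receptor and the nuclear partners did not pass. The signal of notch1.S was 560 and 824 with ICD and 736 with HMM, so HMM lay between the ICD arrays. The difference was -0.11 (adjusted p = 0.946). Which part of the transcript the probe set detects, and whether the injected RNA holds it, is not given in the sources used here, so this value does not check the injection. The DNA-binding partner rbpj.S differed by -0.07 and the coactivator maml1.L by 0.07.

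**Figure D3:**
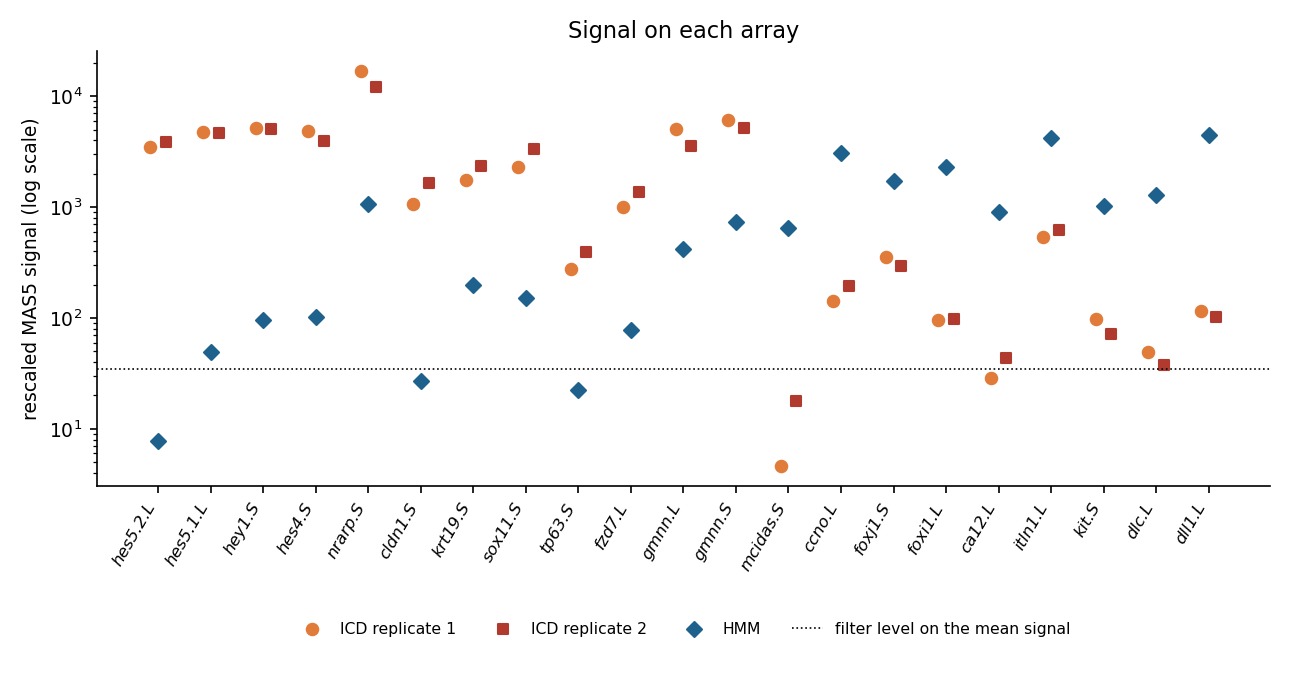
Rescaled MAS5 signal on each of the 3 arrays (vertical axis, log scale) for 21 genes described in the text, with the ICD arrays as a circle and a square and the HMM array as a diamond. For every gene drawn, both ICD arrays lie on the same side of HMM, and the dotted line is the mean signal of 34.5 that a probe set needed to be tested.

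Of 20 regulators of the multiciliated fate on the array 18 were tested, with a median of -0.71 over the list. Of these, 6 fell and the geminin genes gmnn.L and gmnn.S rose, against 0.7% and 1.43% of all genes. The other 10 did not pass, with differences from -0.94 for rfx2.S to 0.47 for the Myb family gene mybl2.S. The gene mcidas.S encodes multicilin, the coactivator that starts the multiciliate programme. Its signal was 4.63 and 17.9 with ICD and 654 with HMM, and it fell by 4.71 ± 0.47 (adjusted p = 0.00869). With both ICD values near the floor, this difference ranged from -5.61 to -3.33 over the settings. The gene ccno.L encodes cyclin O, needed for centriole multiplication in these cells, and its signal was 143 and 193 with ICD and 3093 with HMM. It fell by 4.1 ± 0.30 (adjusted p = 0.00288), and its homeolog ccno.S fell by 3.36 (adjusted p = 0.0132).

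Forkhead genes of the same programme also fell. The signal of foxj1.S, the regulator of motile cilia genes, was 356 and 292 with ICD and 1708 with HMM, and it fell by 2.35 (adjusted p = 0.0134). That call was lost without the intensity trend. The difference of foxj1.L was -0.66 (adjusted p = 0.451). The paralog foxj1.2.L fell by 3.42 (adjusted p = 0.022). The signal of foxn4.S, a forkhead factor of early multiciliate differentiation, was 29.6 and 40.6 with ICD and 331 with HMM, and it fell by 2.79 (adjusted p = 0.0271). For rfx2.S, which encodes a factor that binds cilia gene promoters, the difference of -0.94 did not pass (adjusted p = 0.369). Geminin limits DNA replication licensing and binds multicilin. The signal of gmnn.L was 5028 and 3546 with ICD and 419 with HMM, and it rose by 3.29 ± 0.31 (adjusted p = 0.00758). The signal of gmnn.S was 6172 and 5198 with ICD and 734 with HMM, and it rose by 2.92 ± 0.29 (adjusted p = 0.00869).

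Structural genes of motile cilia lay nearly all on the lower side. Of 47 tested motile cilia and axoneme genes, 5 fell and none rose by the adjusted test, against 0.7% and 1.43% of all genes. At an unadjusted p of 0.05 the counts were 23 lower and 0 higher, against the 7.63% and 5.69% of all genes. The median was -0.91, and 44 of the 47 differences were below 0, as were 58.2% of those over all genes. At least 2-fold lower on both ICD arrays were 19 of them, with no test, against the 3.39% of all genes. The signal of cfap52.S, a protein of the axonemal doublet microtubules, was 23.3 and 21.2 with ICD and 302 with HMM, and it fell by 3.09 (adjusted p = 0.0182). The cfap52.L difference was -0.43. The tektin genes tekt2.S and tekt4.S, which encode filaments of the doublet, fell by 2.59 and 2.38, and the tubulin gene tubb4b.S fell by 1.83. Its brighter homeolog tubb4b.L gave 3315 and 3497 with ICD and 5062 with HMM, a difference of -0.57 (adjusted p = 0.537). The calls on tekt2.S, tekt4.S, tubb4b.S and the centrin gene cetn4.L, which fell by 2.12, were each lost when dim probe sets were kept in, and those on tubb4b.S and cetn4.L also without the trend. The radial spoke gene rsph1.L differed by -2.12 and did not pass (adjusted p = 0.0655).

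Genes of centrioles and of transport into cilia had medians closer to 0. Of 35 tested centriole genes, 1 fell by the adjusted test, which was cetn4.L, and none rose, against 0.7% and 1.43% of all genes. Counts at an unadjusted p of 0.05 were 13 lower and 0 higher, against 7.63% and 5.69% of all genes. The median was -0.70, with 29 of 35 differences below 0. The centriole assembly gene poc1a.L differed by -1.54 (adjusted p = 0.054). Of 33 tested intraflagellar transport and basal body genes none passed in limma, and 4 were lower and 0 higher at an unadjusted p of 0.05, against 7.63% and 5.69% of all genes. The median was -0.50, with 31 of 33 differences below 0, and the largest was bbs12.L, a Bardet-Biedl chaperonin-like gene, at -1.69 (adjusted p = 0.117). In bulk explants, fewer cells of a type and less RNA in each of those cells cannot be told apart.

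The ionocyte genes that fell included regulators and a carbonic anhydrase. Of 51 such genes on the array 38 were tested, with a median of -0.26. By the adjusted test 5 fell and none rose, against 0.7% and 1.43% of all genes. Taken at an unadjusted p of 0.05, 8 were lower and 4 higher, against 7.63% and 5.69% of all genes. The signal of foxi1.L, the forkhead factor that specifies ionocytes, was 94.9 and 98.2 with ICD and 2315 with HMM. It fell by 4.38 ± 0.30 (adjusted p = 0.00272). The signal of ubp1.L, a transcription factor gene expressed in frog ionocytes, was 13.3 and 29.9 with ICD and 814 with HMM, and it fell by 4.54 ± 0.45 (adjusted p = 0.00867). The carbonic anhydrase gene ca12.L gave 28.5 and 43.2 with ICD and 899 with HMM, and it fell by 4.18 ± 0.40 (adjusted p = 0.00758). In each of the 3 genes both ICD arrays were far under HMM.

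The stress-related gene gadd45g.L, counted with ionocyte and with proneural genes, gave 169 and 152 with ICD and 2415 with HMM, and it fell by 3.79 ± 0.28 (adjusted p = 0.00288). The gadd45g.S difference was -1.17 (adjusted p = 0.247). The factor gene tfcp2l1.S fell by 2.47 (adjusted p = 0.0478), a call lost without the filter and without the trend. Subunits of the V-type proton pump, which ionocytes use to move acid, did not pass or were not tested. Differences of the tested subunits ran from -1.405 for atp6v0d2.L to 1.37 for the general subunit gene atp6v1f.L (adjusted p = 0.0648), and most were below 0. The ionocyte-type subunits atp6v1b1.L and atp6v1g3.L were too dim to be tested. Their signals were 16.1 and 17.4 with ICD against 64.1 with HMM for atp6v1b1.L, and 13.7 and 9.99 against 78.0 for atp6v1g3.L. The related forkhead gene foxi4.2.L, expressed early in ectoderm, differed by 1.69 in the opposite direction and did not pass (adjusted p = 0.0655).

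Summed signals of marker genes were compared between the arrays. The summed signal of 10 multiciliate markers was 4645 and 5090 with ICD and 14181 with HMM. That of 4 ionocyte markers was 153 and 189 with ICD and 4092 with HMM. The summed signal of 11 epidermal markers was 55767 and 38035 with ICD and 42474 with HMM, so HMM lay between the ICD arrays. None of these 11 passed the test. Among them epcam.S, krt12.4.L and tfap2a.L had lowest signals of 7481, 5495 and 2762, while krt12.4.S differed by -1.30, grhl3.S by -1.23, and cdh1.S was at 62.8 on ICD replicate 2. The sum of 8 mesoderm markers was 121 and 271 with ICD and 189 with HMM, and that of 7 endoderm markers was 209 and 249 with ICD and 516 with HMM. Of the endoderm markers only gata4.S and a2m.S were tested, and neither passed. The signal of gata4.S was 87.0 and 56.0 with ICD and 334 with HMM, and that of a2m.S was 81.1 and 129 with ICD and 96.1 with HMM. Of 6 blood markers, spib.S alone was tested, at 472 and 741 with ICD and 133 with HMM, and the other 5 were under 15 on every array. These sums compare arrays and are no count of cells.

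**Figure D4:**
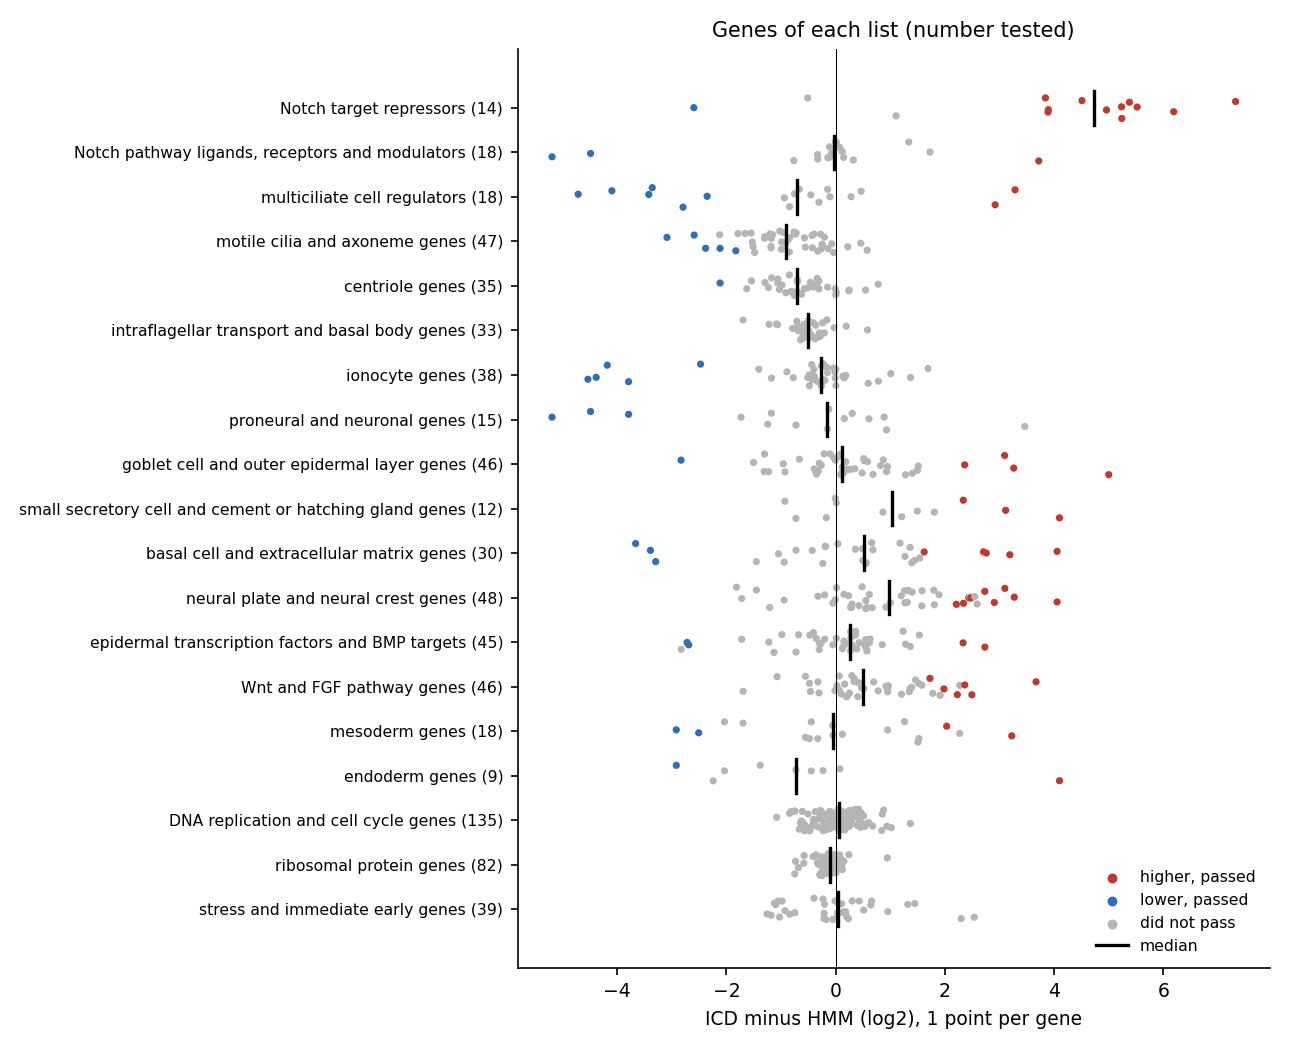
Log2 difference, ICD minus HMM (horizontal axis), of each tested gene in 19 gene lists, 1 point per gene, with the median of each list as a black bar and the number of genes tested in brackets. Hes and Hey repressors stand to the right with a median of 4.74, cilia and centriole lists lie left of 0 with few genes past the test, and ribosomal protein and cell cycle genes gather at 0 with none past it.

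Among genes of the outer epidermal layer, keratins and a claudin rose while a goblet cell lectin fell. Of 57 such genes on the array 46 were tested, 4 rose and 1 fell, against 1.43% and 0.7% of all genes. At least 2-fold on both ICD arrays, with no test, 8 were higher and 2 lower, against 3.55% and 3.39% of all genes. The median difference was 0.12. On the single ICD arrays that median was 0.327 for replicate 1 and 0.006 for replicate 2. The signal of cldn1.S, which encodes a tight junction protein, was 1062 and 1653 with ICD and 26.7 with HMM, and it rose by 5.0 ± 0.35 (adjusted p = 0.00278). The keratin gene krt19.S gave 1763 and 2362 with ICD and 199 with HMM and rose by 3.26 (adjusted p = 0.00549). Its homeolog krt19.L rose by 3.10, and the keratin gene krt18.1.L rose by 2.36, a call lost without the trend. The signal of itln1.L, the intelectin secreted by goblet cells, was 542 and 626 with ICD and 4233 with HMM. It fell by 2.83 ± 0.26 (adjusted p = 0.00637). Other claudin and keratin genes of the list did not pass, with differences from -1.30 for krt12.4.S to 1.51 for krt18.1.S.

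Genes of secretory cells and glands were few. Of 23 on the array 12 were tested, 3 rose and none fell, against 1.43% and 0.7% of all genes. The median of 1.04 depended on the brightness filter, since it was 0.241 over the list without that filter and 1.65 with it at the 60th percentile. Unadjusted, at a p of 0.05, 6 were higher and 1 lower, against 5.69% and 7.63% of all genes. The forkhead gene foxa2.L gave 247 and 554 with ICD and 7.45 with HMM, and it rose by 4.1 ± 0.52 (adjusted p = 0.0179). The cement gland genes that rose were otx1.L, a homeobox factor gene, by 3.11 (adjusted p = 0.0229) and ag1.L, an anterior gradient protein gene, by 2.34 (adjusted p = 0.0217). For ag1.L the signal was already 1269 with HMM, and it was 7257 and 5786 with ICD. The calls on otx1.L and ag1.L were lost without the trend. The other 9 genes did not pass, with differences from -0.93 for agr2.L to 1.81 for otx2.L. Among them foxa1.S differed by -0.73 and pax3.L by 0.01. Over the list 8 differences were above 0 and 4 below.

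In the list of basal cell and matrix genes, those that fell were all receptor genes, and the other genes that passed rose. Of 43 on the array 30 were tested, 5 rose and 3 fell, against 1.43% and 0.7% of all genes. The median was 0.52, and it was 0.317 without ICD replicate 2. At least 2-fold on both ICD arrays, with no test, 11 were higher and 4 lower, against 3.55% and 3.39% of all genes. The signal of sox11.S, a factor gene of the inner ectoderm and of neural tissue, was 2311 and 3337 with ICD and 153 with HMM, and it rose by 4.06 ± 0.31 (adjusted p = 0.00315). The gene tp63.S, which encodes the basal epidermal factor p63, gave 275 and 391 with ICD and 22.5 with HMM and rose by 3.19 ± 0.39 (adjusted p = 0.016). Another tp63.S probe set differed by 2.52 and did not pass (adjusted p = 0.0518). The matrix glycoprotein gene sparc.S rose by 2.76 and sparc.L by 2.71, and both calls were lost with the larger offset, that on sparc.L also without the filter and without the trend. The intermediate filament gene vim.L rose by 1.62, a call lost without the filter and without the trend. The 3 genes that fell were kit.L, kit.S and cxcr4.S. The receptor tyrosine kinase gene kit.S gave 97.9 and 71.6 with ICD and 1023 with HMM and fell by 3.39 (adjusted p = 0.00966), and kit.L fell by 3.66. The chemokine receptor gene cxcr4.S gave 126 and 88.5 with ICD and 1173 with HMM and fell by 3.29 (adjusted p = 0.00966), while the cxcr4.L difference was -1.05 (adjusted p = 0.172). Other receptor genes of the list did not pass, with 1.40 for the FGF receptor gene fgfr1.L, 1.36 for fgfr2.L and 1.44 for the integrin gene itga3.L.

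Neural plate and neural crest genes that passed were all higher with ICD. Of 85 on the array 48 were tested, 9 rose and none fell, against 1.43% and 0.7% of all genes. The median was 0.98, and it was 0.382 without the brightness filter and 0.63 with the larger offset. At an unadjusted p of 0.05 the counts were 22 higher and 3 lower, against 5.69% and 7.63% of all genes. At least 2-fold higher on both ICD arrays were 20 of the 48, with no test, against the 3.55% of all genes. The list shares sox11.S with the basal genes. The signal of sox9.S, a neural crest factor gene, was 473 and 436 with ICD and 33.5 with HMM, and it rose by 3.27 ± 0.33 (adjusted p = 0.00869). The zinc finger gene zic1.S, of the neural plate border, gave 1083 and 1544 with ICD and 159 with HMM and rose by 2.91 ± 0.31 (adjusted p = 0.00966). The Iroquois gene irx1.L rose by 3.10 and irx2.L by 2.21, the second call being lost without the trend. The SoxE gene sox8.L rose by 2.44 (adjusted p = 0.0134). Its other probe sets differed by 2.09 and 1.78 and did not pass.

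Calls on other members of that list were less stable. The SoxB1 gene sox3.S, which marks neural precursors, gave 1804 and 3084 with ICD and 412 with HMM and rose by 2.48 (adjusted p = 0.0277). The crest factor gene pax7.L rose by 2.73 (adjusted p = 0.0369), and the growth regulator myc.L by 2.34 (adjusted p = 0.0252). Without the trend none of these 3 calls held, and without the filter sox3.S and pax7.L were lost, as pax7.L was with the larger offset. The gene sox2.L, related to sox3.S, gave 436 and 952 with ICD and 97.8 with HMM, a difference of 2.55 that did not pass (adjusted p = 0.0591). Over the list 39 differences were above 0 and 9 below. On the lower side, msx2.L differed by -1.72 (adjusted p = 0.0544) and hesx1.L by -1.82 (adjusted p = 0.103). The bright members pax3.L, msx1.L and msx1.S differed by 0.01, -0.05 and 0.15. The summed signal of 7 neural markers was 3384 and 6016 with ICD and 1577 with HMM. Only sox3.S passed among them, and on the ICD arrays sox3.S and sox3.L were the brightest. Of the 7, elavl3.L and tubb2b.S differed by -0.72 and -0.12, and the others were above 0. The part of neural markers in the results for sox11.S and the Wnt genes was not tested.

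The proneural and neuronal list had 15 of its 44 genes tested, 3 fell and none rose, against 0.7% and 1.43% of all genes. The median of -0.15 changed sign to 0.109 without the brightness filter and was -0.724 with the filter at the 60th percentile, -0.436 with all 4 arrays in the fit and -0.384 without ICD replicate 2. By an unadjusted p of 0.05, 7 were lower and 2 higher, against 7.63% and 5.69% of all genes. The members that fell were dll1.L, dlc.L and gadd45g.L, described above. Neuronal differentiation factors did not pass, with -1.73 for the zinc finger gene myt1.S (adjusted p = 0.109) and -1.24 for insm1.L (adjusted p = 0.287). The neuronal intermediate filament gene prph.S gave 157 and 548 with ICD and 13.1 with HMM, a difference of 3.46 that did not pass (adjusted p = 0.0742). Among the markers, the neuronal RNA-binding protein gene elavl3.L differed by -0.72 (adjusted p = 0.386).

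Wnt and FGF pathway genes that passed were likewise all higher with ICD. Of 86 on the array 46 were tested, 6 rose and none fell, against 1.43% and 0.7% of all genes. The median of 0.50 was 0.236 without the brightness filter and 1.36 with it at the 60th percentile. At an unadjusted p of 0.05 the counts were 17 higher and 2 lower, against 5.69% and 7.63% of all genes. The Wnt receptor gene fzd7.L gave 1005 and 1356 with ICD and 77.7 with HMM, and it rose by 3.67 ± 0.30 (adjusted p = 0.00425). The gene tcf7l1.S, which encodes a DNA-binding effector of the pathway, rose by 2.50 (adjusted p = 0.0134). Feedback target genes of Wnt rose too, axin2.L by 2.37 (adjusted p = 0.0216) and sp5.L by 2.23 (adjusted p = 0.0411). The axin2.S difference was 0.92 (adjusted p = 0.42). The FGF-responsive genes etv1.S and dusp5.S rose by 1.98 and 1.73. The calls on axin2.L, sp5.L, etv1.S and dusp5.S were lost without the trend, and all but axin2.L also without the filter and with the larger offset.

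Other ectodermal, mesodermal and endodermal genes gave calls in both directions. Of 45 tested epidermal transcription factor and BMP target genes 2 rose and 2 fell, against 1.43% and 0.7% of all genes. The median was 0.27, and it was 0.095 without ICD replicate 1. The homeobox gene dlx6.L rose by 2.73 (adjusted p = 0.00966) and the Krüppel-like gene klf17.L by 2.34 (adjusted p = 0.0491). The signal of szl.L, which encodes the BMP feedback protein sizzled, was 901 and 429 with ICD and 4184 with HMM, and it fell by 2.72 (adjusted p = 0.0366). The homeolog szl.S fell by 2.69 (adjusted p = 0.0405), and the calls on klf17.L, szl.L and szl.S were lost without the filter and without the trend, that on klf17.L also with the larger offset.

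Of 18 tested mesoderm genes 2 rose and 2 fell, and of 9 tested endoderm genes 1 rose, foxa2.L, and 1 fell, gata6.S. Over all genes 1.43% rose and 0.7% fell. At least 2-fold on both ICD arrays, with no test, 5 mesoderm genes were higher and 4 lower. Of the endoderm genes 1 was higher and 4 lower by that measure, against 3.55% and 3.39% of all genes. Both lists hold gata6.S and gata4.S, which are among the 4 lower of each, and gata6.S is 1 of the 2 mesoderm genes that fell. The gene foxa2.L was also counted with the secretory and gland genes. The notochord homeobox gene not.L gave 416 and 320 with ICD and 25.6 with HMM and rose by 3.23 ± 0.37 (adjusted p = 0.0131). The mesodermal T-box genes tbxt.L and tbxt.S were dim, with signals between 9.99 and 65.1 over the 3 arrays. The zinc finger gene gata6.S gave 33.9 and 20.8 with ICD and 301 with HMM and fell by 2.92 (adjusted p = 0.0268). The heart and limb factor gene hand2.S fell by 2.51 (adjusted p = 0.0366), and the blood cell factor gene spib.S rose by 2.03 (adjusted p = 0.0494). The hand2.S and spib.S calls were lost without the filter, that on spib.S also without the trend and with the larger offset.

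The lists of general growth genes and of stress genes gave no calls by the adjusted test. Related genes counted in other lists or in none did pass, among them gmnn.L, gmnn.S, myc.L, gadd45g.L and hspb7.L. Of 135 tested DNA replication and cell cycle genes none passed in limma, with a median of 0.06. At an unadjusted p of 0.05 they had 7 higher and 2 lower, the share of higher ones being near the 5.69% of all genes, and the largest difference was 1.37 for the replication licensing gene cdc6.L (adjusted p = 0.0588). Of 82 tested ribosomal protein genes none passed, with 1 higher and 1 lower at an unadjusted p of 0.05 and a median of -0.10, which was 0.098 on ICD replicate 1 alone and -0.318 on ICD replicate 2 alone. Of 39 tested stress and immediate early genes none passed, with a median of 0.04 that was below 0 when either ICD array was left out. At an unadjusted p of 0.05, 6 of them were higher and 8 lower, against 5.69% and 7.63% of all genes.

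Xenopus laevis is allotetraploid, and many of its genes have homeologous copies, written L and S. Both copies were tested for 1365 genes, and their differences correlated across genes at r = 0.55. At least 1 copy passed for 43 of them. Both copies passed, in the same direction, for 10 genes, which were hes5.1, hes5.2, gmnn, krt19, crx, mdk and sparc among those that rose and ccno, kit and szl among those that fell. For the other 33 genes 1 copy passed, the L copy in 17 and the S copy in 16. The copy that did not pass had the same sign in 30, and in 15 it differed by less than 1 on the log2 scale. A rise or fall given above for 1 copy therefore does not speak for the other. Signs were opposite in cnfn.1, dio3 and sh3bp4, where the S copies of dio3 and sh3bp4 differed by -0.22 and -0.04. By the brightest probe set of each copy, the pair hes4 differed most among the Notch targets, with copies 4.13 apart. Other hes4.S probe sets were at 4.93, 2.35 and 1.87, against 1.11 for hes4.L. The pair hes5.2 rose in both copies and its copies were 3.43 apart. In cnfn.1, related to human cornifelin of the cornified envelope, the L copy rose by 4.78 while the S copy differed by -1.61. Probe sets can cross-hybridize between homeologs, which would make copies look alike.

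**Figure D5:**
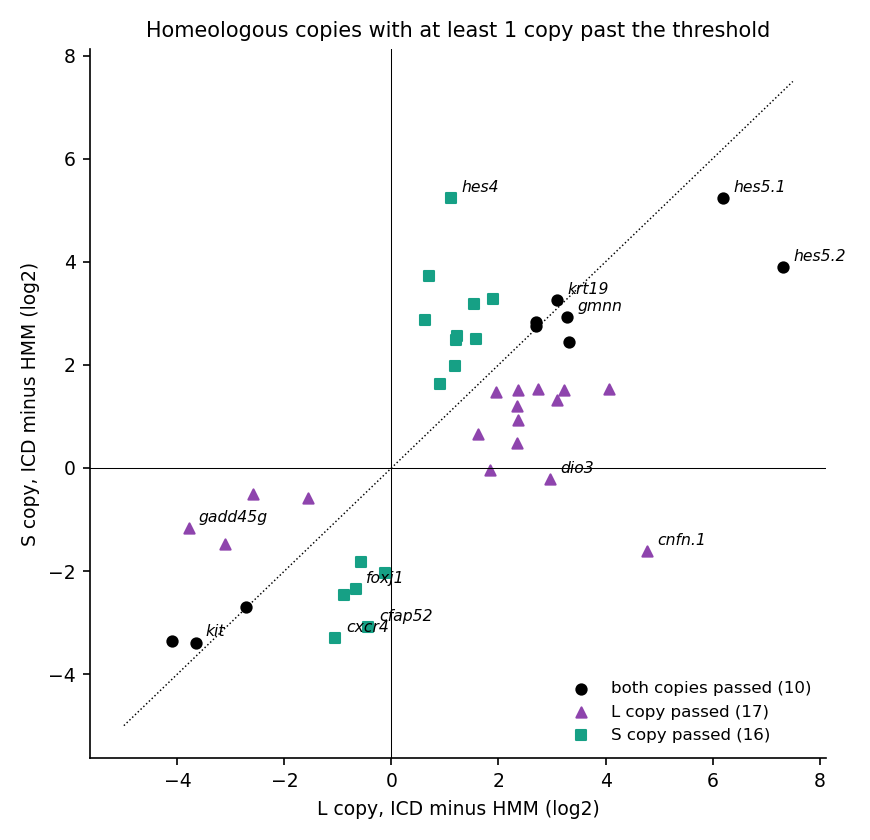
Log2 difference, ICD minus HMM, of the S copy (vertical axis) against the L copy (horizontal axis) for the 43 genes with both copies tested and at least 1 copy past the threshold. The 10 black circles, with both copies past it, have the same sign in both copies, while cnfn.1, dio3 and sh3bp4 have copies of opposite sign.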

How the data were processed

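Caps injected with ICD (2 arrays) and HMM (1 array) were compared. The authors deposited 1 MAS5 signal per probe set and array, an intensity on a linear scale. MAS5 is named in the submitters' processing notes, and its version is not given in the sources used here. Precision is limited by how few arrays there are. Of 32635 probe sets 96 were controls. Gene symbols of the platform annotation were brought up to date by Entrez identifier with the RefSeq table of Xenopus_laevis_v10.1. It held 99.3% of the identifiers and replaced 2 symbols. Outside the controls, 15495 probe sets had 1 symbol, 279 had several and 16765 had none, and the last 2 kinds are unnamed here.

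From these values, each array was rescaled to a common 2% trimmed mean, an offset of 0.25 times the median signal of 60.3 was added before log2, and probe sets with a mean under the 40th percentile were left out. The test was limma 3.58.1, run in R 4.3.3 (lmFit, eBayes with an intensity trend, 5.65 prior degrees of freedom, two-sided, Benjamini-Hochberg over all 19523 probe sets). Genes were counted by the probe set with the highest mean signal. Among genes past the threshold, 45 had several tested probe sets. Of their 70 other probe sets 66 had the same sign and 27 also passed. Arrays were compared by their log2 signals, and the procedure was tested on simulated data. The simulated HMM array was given the spread of the ICD pair, so this cannot check the assumption about the lone HMM array. No cell counts, clutch or batch labels were used.

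The text names up to 20 genes with the highest and 20 with the lowest differences past the threshold and any tested member of 19 lists. The members and lists were chosen with earlier results of these data known, so no count over a list is independent evidence of its direction. Alternatives were other offsets (1 and 0.0625 times the median), no filter or one at the 60th percentile, quantile normalization, no intensity trend, a fit of all 4 arrays, leaving out each ICD array, a minimum difference of 1, and the mean over a gene's probe sets. A planned search of promoters for binding motifs was not run, as sequences were not used here.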

Additional observations from a re-analysis of the deposited data

How the results depend on the processing

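The lone HMM array and 1 residual degree of freedom limit every test, and a fold against a dim signal depends on the offset. Of 324 probe sets past the threshold, 214 were called without the filter on dim probe sets (44 of them lower with ICD), and 155 without the intensity trend (112 higher and 43 lower). Probe sets called here and also under the other settings numbered between 286 and 324, and quantile normalization, which called 445, kept all 324. Of 170 genes past the threshold 85 lost their call in none of the settings that tested them, and none changed sign. Without an ICD array no residual degree of freedom is left, so those values carry no test. No paired analysis was possible because the groups share fewer than 2 replicate numbers. The motif search was not run.

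Medians of gene lists under other settings included the following, and the cause of any shift was not tested. With the larger offset they were 3.78 for Notch target repressors, -0.67 for motile cilia, -0.52 for centriole, -0.45 for intraflagellar transport, -0.24 for ionocyte and 0.63 for neural plate and crest genes. With the smaller offset they were 5.11 for repressors, -1.02 for motile cilia, -0.77 for centriole and -0.27 for ionocyte genes. Without the filter they were 3.90 for repressors, -0.76 for motile cilia, -0.57 for centriole, -0.23 for ionocyte, 0.11 for proneural, 0.24 for secretory and gland, 0.38 for neural plate and crest, 0.24 for Wnt and FGF and 0.065 for mesoderm genes. With the filter at the 60th percentile they were 4.96 for repressors, -0.76 for centriole, -0.72 for proneural, 1.65 for secretory and gland, 1.36 for Wnt and FGF, 1.08 for mesoderm and -1.71 for endoderm genes. Quantile normalization gave -0.62 for centriole, -0.28 for ionocyte and -0.042 for stress genes. The fit of all 4 arrays gave -0.30 for ionocyte, -0.44 for proneural and -0.19 for mesoderm genes. The mean over probe sets gave 4.204 for repressors, -0.24 for ionocyte and 0.60 for Wnt and FGF genes. Leaving out each ICD array in turn gave medians from -0.142 to -0.004 for Notch pathway, -1.03 to -0.906 for motile cilia, -0.705 to -0.642 for centriole, -0.547 to -0.482 for intraflagellar transport, -0.363 to -0.358 for ionocyte, -0.384 to -0.217 for proneural, 0.006 to 0.327 for goblet and outer layer, 0.317 to 0.607 for basal, 0.095 to 0.317 for epidermal factor, 0.525 to 0.656 for Wnt and FGF, 0.099 to 0.138 for mesoderm, -0.318 to 0.098 for ribosomal protein and -0.102 to -0.011 for stress genes.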

Other observations

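Among named genes outside the 19 lists, 68 rose and 25 fell, and those given here were chosen after their values were seen, in part by the size of the change. The heparin-binding growth factor gene ptn.L gave 4530 and 4901 with ICD and 113 with HMM and rose by 5.21 (adjusted p = 0.00117), and mdk.L, for the related midkine, rose by 3.31. The repressor gene prdm1.S rose by 4.24, the small heat-shock protein gene hspb7.L by 4.31, and the caveolar coat gene cavin1.L by 4.12. The lipocalin-type prostaglandin D synthase gene ptgds.S gave 411 and 1123 with ICD and 15.04 with HMM and rose by 4.53 (adjusted p = 0.0174), a call lost without the intensity trend. The retinoid-binding protein gene crabp2.L and the endocytic receptor gene lrp2.L both rose by 3.72, the call on lrp2.L being lost without the trend. Another lrp2.L probe set differed by 1.83 and did not pass (adjusted p = 0.29). The gene tsga10.L, known from the sperm tail in mammals, fell by 3.65, and saxo2.L, which encodes an axonemal microtubule protein, fell by 3.11. The gene val.L fell by 3.94 and the Sox factor gene sox7.L by 3.32.

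Of 147 tested genes with a solute carrier symbol, 4 fell by limma's adjusted test and none rose, against 0.7% and 1.43% of all genes. At an unadjusted p of 0.05 there were 19 lower and 7 higher, against 7.63% and 5.69% of all genes, and the median was -0.22. Those that fell were slc19a3.L by 3.19, slc2a12.L by 2.50, slc3a2.S by 1.84 and slc17a9.L by 1.82, and all of these calls but that on slc19a3.L were lost without the brightness filter. Of 2272 tested pairs of neighbouring genes in the RefSeq order, both genes passed in 8 pairs, each in the same direction. Singly, 1.43% of all genes rose and 0.7% fell. The 8 pairs were rab11fip5.L with not.L, ccno.S with mcidas.S, slc2a12.L with sgk1.L, irx2.L with irx1.L, metrnl.L with trim16.L, and 3 pairs of hes5 genes. Probe sets of hes5 genes may detect more than 1 of them, as said above. The calls on rab11fip5.L and metrnl.L were lost without the trend, and another metrnl.L probe set differed by 0.68 (adjusted p = 0.459). In 68 other pairs only 1 gene passed, and its neighbour had the same sign in 48. Over all genes 58.2% of differences were below 0. Whether neighbours agree more often than other pairs of genes was not tested. A further 114 probe sets that passed had no single gene symbol, 93 higher and 21 lower, with differences from -4.96 to 5.21.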
